A study of Mus musculus with 3 samples.

Results

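The mitochondrial ribosomal protein genes were taken as every row of the deposited count table whose symbol starts with Mrpl or Mrps and a digit, without symbols marked -ps. The rule found 78 genes of 20586, 49 with Mrpl and 29 with Mrps symbols. By the known place of their proteins, 29 belong to the large subunit and have bacterial relatives, 21 are mitochondria-specific proteins of the large subunit, 17 belong to the small subunit and have bacterial relatives, and 9 are mitochondria-specific proteins of the small subunit. The other 2, Mrpl55 and Mrps36, were left unplaced; the Mrps36 protein is also known as a component of the 2-oxoglutarate dehydrogenase complex. Mrps30 and Mrps18a carry small subunit symbols, but their proteins sit in the large subunit, and both were counted as mitochondria-specific. Mrps18a is a relative of the bacterial protein S18 as well, while Mrps18b, another such relative, was counted with the bacterial relatives. The line between the 2 kinds is therefore approximate.

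Mitochondrial ribosomes translate the few messenger RNAs that the mitochondrial genome encodes, all for subunits of the respiratory chain and ATP synthase. Their RNAs come from mitochondrial DNA, whereas all of their proteins are encoded in the nucleus, made in the cytosol and imported. Many of these proteins have relatives in bacterial ribosomes, and others are found only in mitochondria.

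Single cells were profiled from CD45+ cells of mouse thalamus, a gate that holds microglia and other leukocytes, collected 4 h after an intracerebroventricular injection. Mice of the cKO IL-33 group were Cx3cr1-creER heterozygous, with a drug-inducible recombinase expressed from the Cx3cr1 locus in microglia and other macrophages, carried ST2 flox homozygous alleles of the receptor for the cytokine IL-33, and were given IL-33. The WT IL-33 group had Cx3cr1-creER heterozygotes without the floxed alleles, also given IL-33, and the WT vehicle group such heterozygotes given vehicle. All 3 groups therefore carry the recombinase, and a floxed group given vehicle was not analysed here. The labels do not give the animals per library, their age or which exons the floxed alleles lose. There was 1 library per group, so no difference below has a replicate check, none was tested, and intervals cover the error of counting UMIs (unique molecular identifiers, which mark single RNA molecules) only.

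The cKO IL-33 library held 2687 cells and 17480958 UMIs, the WT IL-33 library 2202 cells and 12127214 UMIs, and the WT vehicle library 2709 cells and 18269042 UMIs. Median UMIs per cell were 5119, 3951 and 5544 in that order. Of 7598 cells, 99.96% held 3 or more of 8 microglial markers, and 2 barcodes occurred in more than 1 library. Summed markers of border macrophages stood at 85.9 CPM (UMIs of a gene per 1000000 UMIs of the library) in cKO IL-33, 11.05 CPM in WT IL-33 and 75.4 CPM in WT vehicle, with 5, 4 and 5 of 5 markers detected (Lyve1 was at 0 in WT IL-33). Monocyte markers summed to 31.8, 7.34 and 56.4 CPM in the same order, with 2 of 3 detected in each library, and dendritic cell markers to 6.24, 12.8 and 4.82 CPM, with 3 of 3 detected. The 8 microglial markers summed to 29645, 23711 and 26955 CPM. The deposited sex calls differed between the libraries: 2648 of the cKO IL-33 cells, 1107 of the WT IL-33 cells and 8 of the WT vehicle cells were called female. The targeted gene, Il1rl1, had 224 UMIs in cKO IL-33, 70 in WT IL-33 and 212 in WT vehicle, and since tags from its 3' end may lie outside the floxed exons, these counts do not check the genotype. The part of sex, depth and other cell types in the differences below was not tested. The summed level is given at equal depth for each comparison, and within one sex call for the 2 comparisons with WT IL-33.

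All 78 genes were detected in each library. Together they gave 53515 UMIs in cKO IL-33, 47579 in WT IL-33 and 56142 in WT vehicle, a median of 16, 16 and 17 UMIs per cell. As a share of the library this was 3061 CPM in cKO IL-33 (95% interval 3035 to 3087), 3923 CPM in WT IL-33 (3888 to 3959) and 3073 CPM in WT vehicle (3048 to 3099). The WT IL-33 library thus stood above both others, which were close to each other, while the UMIs per cell were nearly the same in all 3.

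UMIs here mark the 3' ends of transcripts, so CPM was not divided by length, and the order of genes that follows is an order of tag levels. Mrpl52, a mitochondria-specific protein of the large subunit, had the highest level, at 179 CPM in cKO IL-33, 175 CPM in WT IL-33 and 177 CPM in WT vehicle. The next by mean level were Mrpl43 (125, 107 and 118 CPM), Mrpl23 (112, 110 and 120 CPM), Mrps33 (99.7, 87.5 and 106 CPM), Mrpl20 (64.6, 106 and 75.8 CPM) and Mrpl24 (81.4, 78.2 and 73.9 CPM), in the same order of libraries. Of these 6, Mrpl20 alone was at its highest in WT IL-33. The lowest above the minimum of 10 CPM on the mean of the libraries were Mrpl39 (9.72, 14.3 and 10.1 CPM), Mrpl37 (12.5, 13.9 and 11.6 CPM), Mrpl47 (10.2, 19.7 and 9.20 CPM) and Mrpl10 (14.4, 17.8 and 13.7 CPM). Mrps27 was below that minimum, at 7.04 CPM in cKO IL-33, 14.8 CPM in WT IL-33 and 7.499 CPM in WT vehicle, which leaves 77 genes for the counts below.

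**Figure D1:**
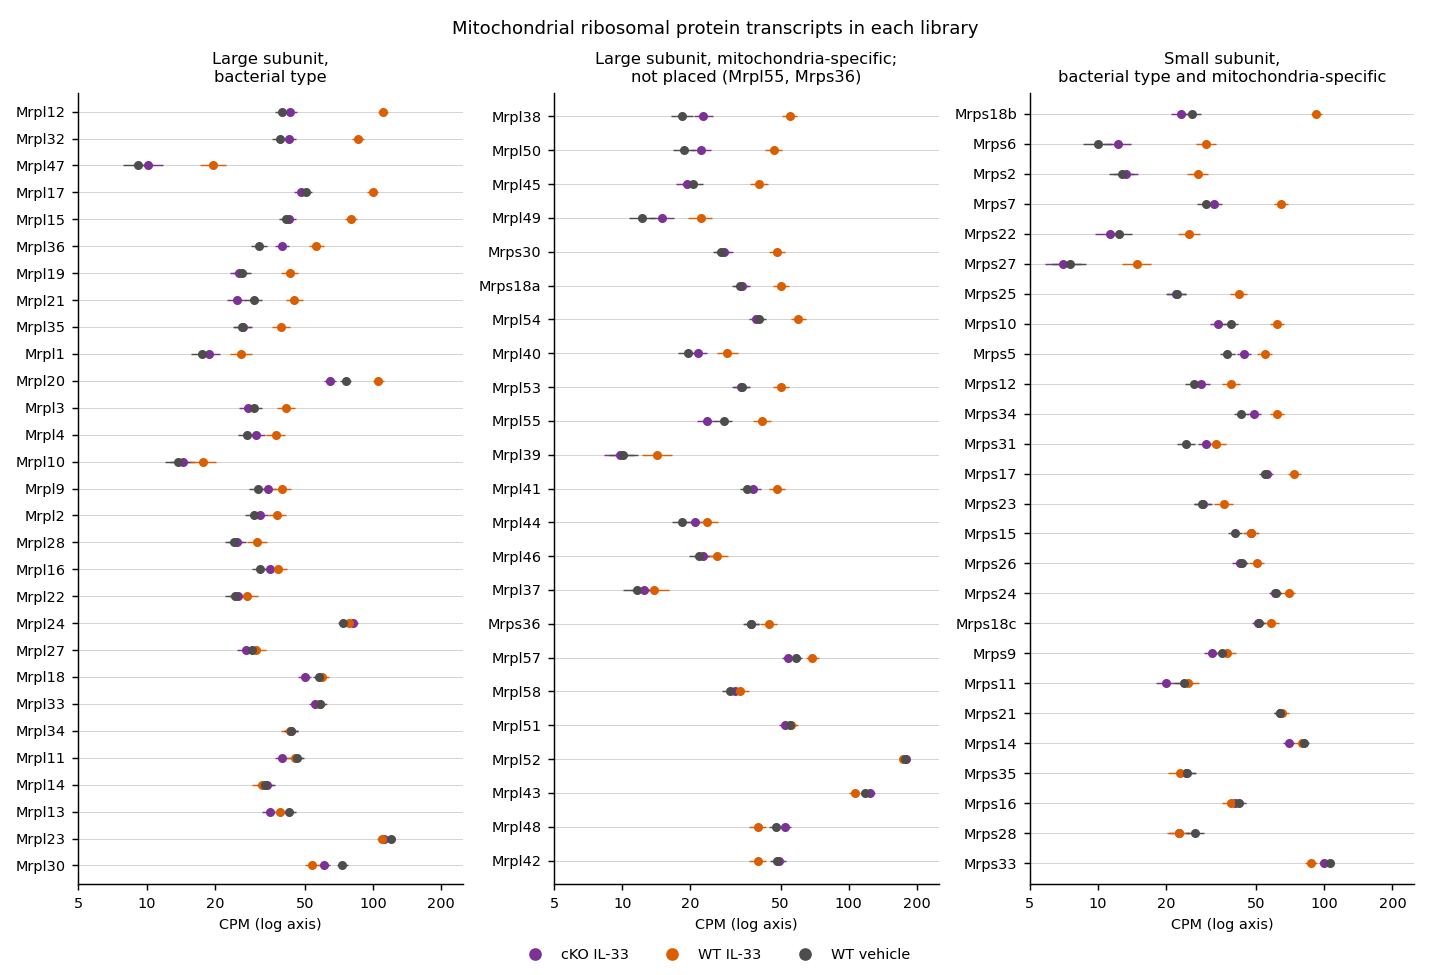
Level of each of the 78 genes in each library, in CPM on a log axis, in 3 panels by subunit and kind; points are libraries and bars are exact 95% Poisson intervals. Genes run down each panel by their WT IL-33 over WT vehicle ratio: WT IL-33 stands to the right for the upper genes, such as Mrps18b at 92.3 CPM, and on or left of the other libraries for the lowest.

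Promoter sequence is shown for 4 genes that span the range of responses described below: Mrps18b and Mrpl32, both more than 2-fold higher in WT IL-33 than in WT vehicle, Mrpl52, the most abundant and nearly level, and Mrpl30, the lowest ratio. Promoters of nuclear genes for mitochondrial proteins are known to be bound often by NRF1, by ETS family factors and by YY1. The windows run 250 bases before to 50 after the start in RefSeq, build GRCm38.p6, 5' to 3' on the gene's strand. Capitals mark matches on either strand to GCATGCGC (the NRF1 motif), TGCGCA (its core, which reads the same on both strands and can overlap GCATGCGC), CCGGAAG (ETS) and AAGATGGC (YY1).
Mrps18b, chr17:35916391-35916690, minus strand: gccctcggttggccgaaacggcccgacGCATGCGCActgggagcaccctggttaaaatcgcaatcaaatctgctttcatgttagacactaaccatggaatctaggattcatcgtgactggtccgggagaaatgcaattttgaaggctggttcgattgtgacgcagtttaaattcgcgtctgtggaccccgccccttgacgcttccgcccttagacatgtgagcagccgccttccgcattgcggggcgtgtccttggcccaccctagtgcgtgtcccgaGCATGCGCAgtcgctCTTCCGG
Mrpl32, chr13:14612988-14613287, minus strand: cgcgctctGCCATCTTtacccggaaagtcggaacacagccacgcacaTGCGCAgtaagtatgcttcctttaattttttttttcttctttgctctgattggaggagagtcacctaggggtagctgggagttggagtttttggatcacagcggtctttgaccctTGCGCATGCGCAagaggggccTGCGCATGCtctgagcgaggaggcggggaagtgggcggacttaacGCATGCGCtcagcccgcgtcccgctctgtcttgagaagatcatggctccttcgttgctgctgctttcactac
Mrpl52, chr14:54426659-54426958, plus strand: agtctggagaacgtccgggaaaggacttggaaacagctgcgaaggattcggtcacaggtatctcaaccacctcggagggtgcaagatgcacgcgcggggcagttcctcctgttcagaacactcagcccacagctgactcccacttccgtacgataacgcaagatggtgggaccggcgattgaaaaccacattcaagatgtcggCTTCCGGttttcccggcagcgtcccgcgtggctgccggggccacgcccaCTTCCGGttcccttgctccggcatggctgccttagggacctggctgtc
Mrpl30, chr1:37890227-37890526, plus strand: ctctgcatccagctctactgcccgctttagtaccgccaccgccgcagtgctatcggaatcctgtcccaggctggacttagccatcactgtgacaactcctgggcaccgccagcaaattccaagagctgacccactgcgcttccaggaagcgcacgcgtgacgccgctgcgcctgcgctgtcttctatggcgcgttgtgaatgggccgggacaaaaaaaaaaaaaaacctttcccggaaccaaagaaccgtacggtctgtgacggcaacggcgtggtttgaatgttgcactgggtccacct
In these windows Mrps18b had 2 NRF1 matches, 2 cores and 1 ETS match, and Mrpl32 had 4 NRF1 matches, some overlapping, 4 cores and 1 YY1 match. Mrpl52 had 2 ETS matches, and Mrpl30 had none of these letters.

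RefSeq held a promoter for 69 of the 78 genes. The NRF1 motif lay in 11.6% of them, against 3.05% of all 27025 promoters, and its core in 30.4% against 8.79%. The ETS motif lay in 37.7% against 9.93%, and the YY1 motif in 17.4% against 3.19%. The E-box CACGTG, read for contrast, lay in 7.25% of these promoters against 8.09% of all. The 27025 promoters were taken whether or not their genes were expressed in these cells. The shares among expressed genes alone were not counted. Of the 69 matched genes, 18 were 1.5-fold or more higher in WT IL-33 than in WT vehicle. The core lay in 44.4% of these 18 promoters and the ETS motif in 27.8%, against 25.5% and 41.2% of the other 51. The full NRF1 motif lay in 3 of the 18, Mrps18b and Mrpl32 among them, and in 5 of the other 51. For this motif the printed promoters of Mrps18b and Mrpl32 are thus not typical of the 18. The YY1 motif lay in 27.8% against 13.7%, and the E-box in 5.56% against 7.84%. A motif of the factor NF-kB, also read, lay in 0 of the 69 promoters, against 0.466% of all. A match describes the letters of the window and shows no binding, and none of these shares was tested.

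The first comparison, WT IL-33 over WT vehicle, asks what the cytokine did in mice with an intact receptor gene. At 10 CPM or more, 21 of 77 genes (27.3%) were 1.5-fold or more higher in WT IL-33, beside 21.8% of all 8385 genes at that level, and 0 of 77 were at least 1.5-fold lower, beside 19.1% of all genes. The share that was higher was thus near the background, and no gene of the group was among the lower genes. The median log2 ratio was 0.36 for the group, with quartiles at 0.06 and 0.60, against 0.04 for all genes and 0.07 for the 7218 genes in the same range of levels. Of the 77 genes, 62 lay above a ratio of 1 and 15 below. The share of all genes on each side was not counted, but their log2 ratios had quartiles at -0.43 and 0.51. Past 2-fold, 10 genes (12.99%) were higher, beside 10.6% of all genes, and 0 were lower, beside 9.3%. At a ratio of 5 to 4 or more, 42 were higher, beside 33.6%, and 1 was lower, beside 29.6%. The summed level was 1.28-fold higher (1.26 to 1.29), 1.31-fold higher in cells called male, and 1.29-fold higher in cells thinned to 3000 UMIs each.

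Mrps18b stood furthest from 1. It encodes one of 3 mammalian paralogs of the bacterial small subunit protein S18, at chr17:35910379-35916389 on the minus strand. It had 407 UMIs in cKO IL-33, 1119 in WT IL-33 and 478 in WT vehicle, or 23.3, 92.3 and 26.2 CPM. WT IL-33 was alone at the high level, 3.53-fold above WT vehicle (3.17 to 3.93), and 3.88-fold above it in cells called male. The paralogs differed from it: Mrps18a was at 33.9, 50.4 and 33.2 CPM (1.52-fold higher, 1.35 to 1.70), and Mrps18c at 51.0, 58.4 and 51.5 CPM (1.13-fold higher, 1.027 to 1.251).

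Mrpl12, the relative of the bacterial L7/L12 stalk protein, is also known to bind the mitochondrial RNA polymerase. It was at 42.8 CPM in cKO IL-33, 111 CPM in WT IL-33 and 39.6 CPM in WT vehicle, 2.80-fold higher in WT IL-33 than in WT vehicle (2.55 to 3.07). Mrpl32, a large subunit protein with bacterial relatives whose precursor is processed by the m-AAA protease, was at 42.6, 86.0 and 38.8 CPM, 2.22-fold higher (2.02 to 2.44). Both had WT IL-33 alone at the high level and the other 2 libraries within a few CPM of each other.

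Mrpl38 and Mrpl50 are mitochondria-specific proteins of the large subunit. Mrpl38 was at 22.8 CPM in cKO IL-33, 55.0 CPM in WT IL-33 and 18.4 CPM in WT vehicle, 2.99-fold higher in WT IL-33 than in WT vehicle (2.62 to 3.42). Mrpl50 was at 22.4, 46.6 and 18.8 CPM, 2.48-fold higher (2.17 to 2.85). For both, cKO IL-33 lay slightly above WT vehicle.

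Mrps2, Mrps6 and Mrps7 are small subunit proteins with bacterial relatives. Mrps2 was at 13.3 CPM in cKO IL-33, 27.6 CPM in WT IL-33 and 12.8 CPM in WT vehicle, 2.17-fold higher in WT IL-33 than in WT vehicle (1.83 to 2.57). Mrps6 was at 12.2, 30.1 and 10.0 CPM, 3.005-fold higher (2.51 to 3.61), but it overlaps Slc5a3 on the same strand, which was at 8.70, 19.9 and 6.35 CPM, so its value is uncertain. Mrps7 was at 32.5, 64.5 and 29.9 CPM, 2.16-fold higher (1.93 to 2.41). It overlaps Mif4gd on the opposite strand, at 24.5, 93.2 and 24.3 CPM, and the labels do not say whether reads were counted by strand, so the Mrps7 value is uncertain too. Of the 78 genes, 32 overlap another gene of the table on either strand and 3 on the same strand.

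The other 13 genes past 1.5-fold ran between 1.51-fold (Mrpl21) and 2.14-fold (Mrpl47), with Mrps22 at 2.04-fold and Mrpl17 at 1.97-fold. By place, the genes past 1.5-fold were 8 of 29 of the large subunit with bacterial relatives, 6 of 21 of its mitochondria-specific proteins, 5 of 17 of the small subunit with bacterial relatives, and 2 of 8 of its mitochondria-specific proteins. The share of all genes past 1.5-fold was 21.8%. The 4 medians of log2 ratios were 0.36, 0.44, 0.23 and 0.38 in that order. The ratios of summed levels ran in another order. Those with bacterial relatives were at 1.30 (1.275 to 1.326) in the large subunit and 1.34 (1.304 to 1.373) in the small. The mitochondria-specific classes were at 1.22 (1.194 to 1.252) and 1.20 (1.152 to 1.246), with intervals below both. The difference between the classes was not tested. The 21 genes summed to 567 CPM in cKO IL-33, 1146 CPM in WT IL-33 and 550 CPM in WT vehicle, and the other 57 to 2495, 2777 and 2524 CPM; since the 21 were picked by this ratio, their sum is a description. Genes of higher level had ratios nearer 1. Of 56 genes with a mean from 10 to under 50 CPM, 17 were past 1.5-fold (30.4%, beside 24.3% of all genes at that level) and the median log2 ratio was 0.44, whereas of 21 genes at 50 CPM or more, 4 were past it (19.0%, beside 18.5%) and the median was 0.08.

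At the other end, Mrpl30, a large subunit protein with bacterial relatives, was at 60.9 CPM in cKO IL-33, 54.0 CPM in WT IL-33 and 73.1 CPM in WT vehicle, 1.35-fold lower in WT IL-33 than in WT vehicle (1.23 to 1.49). The mitochondria-specific Mrpl42 was at 49.3, 39.6 and 48.3 CPM, 1.22-fold lower (1.09 to 1.37), and Mrps33, mitochondria-specific in the small subunit, at 99.7, 87.5 and 106 CPM, 1.21-fold lower (1.12 to 1.30). Mrpl48 was 1.20-fold lower (1.07 to 1.35), Mrps28 1.18-fold (1.02 to 1.37), Mrpl43 1.11-fold (1.03 to 1.19), Mrpl23 1.10-fold (1.02 to 1.18) and Mrpl13 1.09-fold (0.973 to 1.23). None of these 8 reached 1.5-fold, and the interval of Mrpl13 took in 1.

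**Figure D2:**
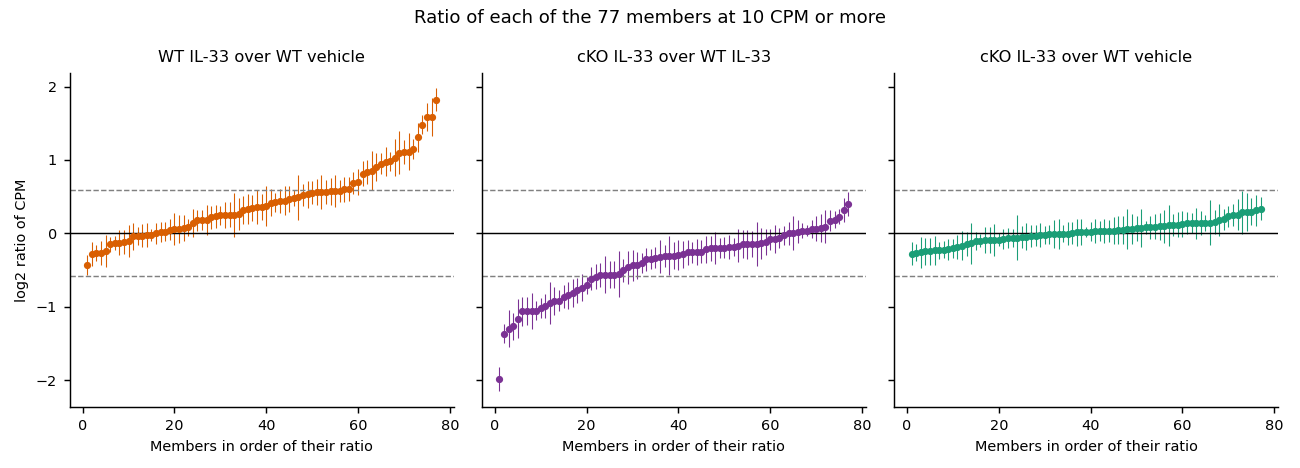
Log2 ratio of CPM for each of the 77 genes at 10 CPM or more, in order of the ratio, in 3 panels for the 3 comparisons; bars are exact 95% intervals for counting error and dashed lines mark 1.5-fold. Ratios reach 1.82 for WT IL-33 over WT vehicle and -1.99 for cKO IL-33 over WT IL-33, and stay between -0.28 and 0.34 for cKO IL-33 over WT vehicle.

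The second comparison, cKO IL-33 over WT IL-33, sets floxed ST2 against the intact gene, both after the cytokine. It shares the WT IL-33 library with the first comparison, so an opposite sign in the 2 is no second piece of evidence. Of 77 genes, 22 (28.6%) were at least 1.5-fold lower in cKO IL-33, beside 18% of all genes, and 0 were higher, beside 20.7%. Past 2-fold, 10 were lower, beside 8.91%, and 0 higher, beside 10.2%. At a ratio of 5 to 4 or more, 35 were lower, beside 29.6%, and 1 was higher, beside 31.4%. The median log2 ratio was -0.30, against 0.01 for all genes. The summed level in cKO IL-33 was 0.780 of that in WT IL-33 (0.771 to 0.790), 0.798 of it among cells called female without Y-linked UMIs, and 0.775 of it in cells thinned to 3000 UMIs each.

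In this comparison Mrps18b was 3.96-fold lower in cKO IL-33 (3.53 to 4.45), Mrpl12 2.58-fold lower (2.36 to 2.83) and Mrpl38 2.41-fold lower (2.13 to 2.73). Mrps6, uncertain as above, was 2.46-fold lower (2.07 to 2.92). Mrps22, a mitochondria-specific small subunit protein, was at 11.3 CPM in cKO IL-33, 25.2 CPM in WT IL-33 and 12.4 CPM in WT vehicle, 2.24-fold lower in cKO IL-33 than in WT IL-33 (1.87 to 2.69). Mrpl45, mitochondria-specific and known to lie at the exit of the peptide tunnel, was at 19.3, 40.3 and 20.5 CPM, 2.09-fold lower (1.82 to 2.41). Mrpl50 and Mrps2 were both 2.08-fold lower. In each of these 8 the WT IL-33 library was the highest. The cKO IL-33 over WT vehicle ratio was 1.24 for Mrpl38 (1.07 to 1.44) and 1.19 for Mrpl50 (1.03 to 1.38). For the others of the 8 the interval of that ratio took in 1.

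The highest ratios in this comparison were those of Mrpl48, at 52.3 CPM in cKO IL-33, 39.6 CPM in WT IL-33 and 47.6 CPM in WT vehicle, 1.32-fold higher in cKO IL-33 than in WT IL-33 (1.18 to 1.48), and Mrpl42, 1.246-fold higher (1.11 to 1.40). Mrpl43 (1.17-fold), Mrps33 (1.14-fold), Mrpl30 (1.13-fold), Mrps35 (1.06-fold), Mrpl14 (1.05-fold) and Mrps16 (1.05-fold) followed. The intervals of Mrps35 (0.913 to 1.24), Mrpl14 (0.925 to 1.20) and Mrps16 (0.929 to 1.18) took in 1.

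The third comparison, cKO IL-33 over WT vehicle, shares a library with each of the others. In cKO IL-33, 2648 of 2687 cells were called female, and in WT vehicle 2701 of 2709 were called male. Floxed ST2, the cytokine and the sex call therefore differ together here and cannot be told apart. Here 0 of 77 genes were at least 1.5-fold higher, beside 2.4% of all genes, and 0 were lower, beside 1.03%, shares too low for a count of 0 in 77 genes to stand out. Past 2-fold both counts were 0, beside 0.596% higher and 0.286% lower of all genes. At a ratio of 5 to 4 or more, 1 gene was higher, beside 11.8%, and 0 were lower, beside 4.05%. The median log2 ratio was 0.02, against 0.06 for all genes, and the summed level in cKO IL-33 was 0.996 of that in WT vehicle (0.984 to 1.01), and also 0.996 of it in cells thinned to 3000 UMIs each. The sign of the group's median depends on the scaling: it was -0.05 with TMM-scaled totals, while that of all genes was -0.01. Under both scalings the group's median lay below that of all genes. The highest ratios were those of Mrpl36 (39.6 CPM in cKO IL-33, 56.2 CPM in WT IL-33 and 31.4 CPM in WT vehicle; 1.26-fold, 1.13 to 1.41) and Mrpl38 (1.24-fold, 1.07 to 1.44). Mrps31 (1.22-fold), Mrps6 (1.22-fold), Mrpl49 (1.22-fold), Mrpl50 (1.19-fold), Mrps5 (1.19-fold) and Mrps15 (1.18-fold) came next. The lowest were Mrpl13, at 35.1, 38.9 and 42.5 CPM (1.21-fold lower, 1.09 to 1.35), and Mrpl30 (1.20-fold lower, 1.11 to 1.30), then Mrps11 (1.20-fold), Mrpl55 (1.19-fold), Mrpl21 (1.18-fold), Mrps28 (1.18-fold), Mrpl20 (1.17-fold) and Mrps14 (1.17-fold). Mrps18b was 1.12-fold lower, with an interval that took in 1 (0.983 to 1.29).

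The deposited table puts the cells in 6 clusters without names. Cluster 1 held 1815 of the WT IL-33 cells (82.4%), but 35 cells of cKO IL-33 and 20 of WT vehicle, under the 50 cells required here, so the cluster and the library cannot be told apart in it. Its summed level was 3983 CPM (3945 to 4021). In cluster 0 the sum was 3165 CPM in 1374 cKO IL-33 cells, 3632 CPM in 144 WT IL-33 cells and 3102 CPM in 1327 WT vehicle cells. In cluster 3 it was 3050, 4066 and 3127 CPM in 349, 67 and 512 cells. WT IL-33 was the highest in both, 1.17-fold above WT vehicle in cluster 0 (1.12 to 1.23) and 1.30-fold in cluster 3 (1.22 to 1.38).

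In cluster 2 the sum was 2831, 2959 and 2709 CPM in 721 cKO IL-33, 102 WT IL-33 and 515 WT vehicle cells, and WT IL-33 was 1.09-fold above WT vehicle (1.03 to 1.16). In cluster 5 it was 2851, 3420 and 2936 CPM in 86, 59 and 88 cells, and WT IL-33 was 1.16-fold above WT vehicle (1.083 to 1.252). Cluster 4 had the highest sums of cKO IL-33 and WT vehicle, 3477 CPM in 122 cells and 3500 CPM in 247 cells, and 15 WT IL-33 cells. WT IL-33 was thus the highest library in each of the 4 clusters where all 3 could be compared, and closest to the others in cluster 2, where its interval met that of cKO IL-33. Depth differed within clusters as it did overall: in cluster 0 the median UMIs per cell were 4882 in cKO IL-33, 3230 in WT IL-33 and 5305 in WT vehicle. Across the deposited cell-cycle phases the sums were 3029, 3918 and 3026 CPM in G1 cells, 3072, 3956 and 3063 CPM in S cells, and 3255, 3877 and 3252 CPM in G2M cells, so WT IL-33 was the highest library in each phase.

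**Figure D3:**
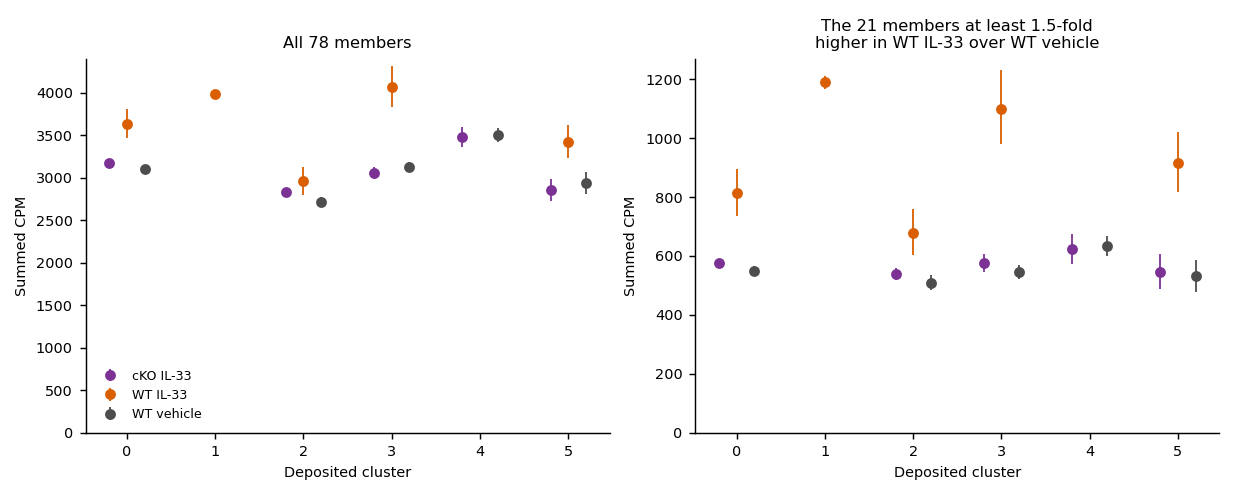
Summed CPM of all 78 genes (left) and of the 21 genes 1.5-fold or more higher in WT IL-33 than in WT vehicle (right) by deposited cluster and library, where a library had 50 cells or more; bars are exact 95% Poisson intervals. WT IL-33 is the highest point in clusters 0, 2, 3 and 5, and cluster 1 holds WT IL-33 alone, at 3983 CPM for the 78 genes. The 21 genes were picked by their WT IL-33 over WT vehicle ratio in these same cells. A high WT IL-33 level on the right thus largely follows from the choice, and that panel is a description.

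Single genes had few UMIs in most clusters, so the intervals are wide. Mrps18b was at 97.2 CPM in the WT IL-33 cells of cluster 1 (91.3 to 103). In cluster 0 it was at 23.0 CPM in cKO IL-33 (19.8 to 26.4), 54.3 CPM in WT IL-33 (36.1 to 78.5) and 24.3 CPM in WT vehicle (21.02 to 27.8). In cluster 3 it was at 22.8 CPM (17.0 to 29.9), 91.7 CPM (59.3 to 135) and 21.8 CPM (17.2 to 27.2) in the same order. Its intervals in WT IL-33 lay above those of both other libraries in clusters 0 and 3, but not in clusters 2 and 5. In cluster 2 it was at 24.7, 36.6 and 28.7 CPM on 124, 16 and 97 UMIs. In cluster 5 it was at 19.6 CPM in cKO IL-33 (10.1 to 34.2), 78.9 CPM in WT IL-33 (52.0 to 115) and 38.7 CPM in WT vehicle (25.5 to 56.3), where the WT IL-33 interval met that of WT vehicle. Mrpl12 was at 118 CPM in cluster 1 (111 to 125) and at 41.2, 91.7 and 39.4 CPM in cluster 3. In cluster 2 it was at 39.4, 36.6 and 32.8 CPM, with WT IL-33 between the other libraries. Mrpl52 stayed between 112 and 198 CPM in every library and cluster with 50 cells, with its lowest value in the WT IL-33 cells of cluster 2 (112 CPM, 83.0 to 148).

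**Figure D4:**
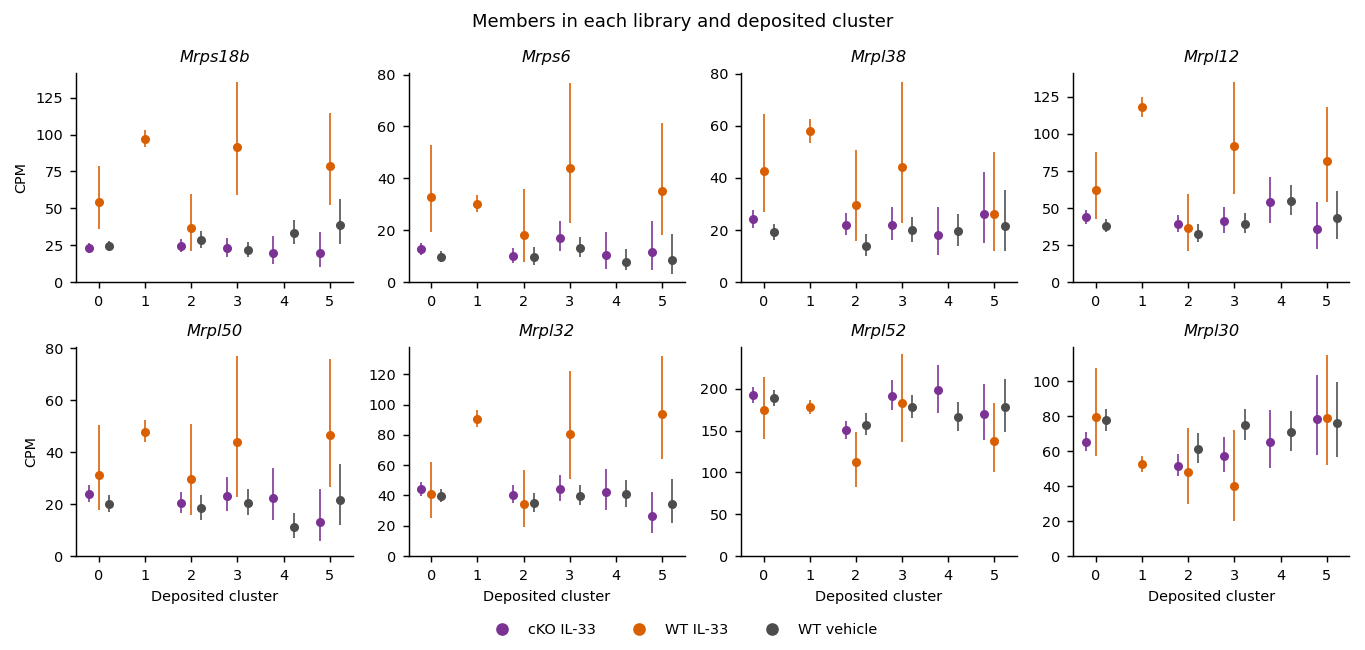
CPM of 8 genes by deposited cluster and library where a library had 50 cells or more, with exact 95% Poisson intervals; each panel has its own axis from 0. The 6 genes with the highest WT IL-33 over WT vehicle ratios are followed by the most abundant, Mrpl52, and by Mrpl30, which has the lowest ratio; Mrps18b reaches 97.2 CPM in cluster 1.

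Other genes of mitochondrial translation were read from lists, and the counts are of list members at 10 CPM or more. Of 5 mitochondrial ribosomal proteins under other symbols, 3 were 1.5-fold or more higher in WT IL-33 than in WT vehicle, beside 21.8% of all genes, and 0 were lower, beside 19.1%. Dap3, a GTP-binding protein of the small subunit, was at 21.7 CPM in cKO IL-33, 34.1 CPM in WT IL-33 and 17.1 CPM in WT vehicle (1.999-fold higher in WT IL-33 than in WT vehicle, 1.72 to 2.32). Ptcd3 was 1.71-fold higher (1.51 to 1.95) and Gadd45gip1 1.68-fold higher (1.52 to 1.86).

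Of 25 genes for assembly of the mitochondrial ribosome and processing of its RNA, 12 were 1.5-fold higher or more in WT IL-33, beside 21.8% of all genes, and 1 was lower, beside 19.1%. Their median log2 ratio was 0.58, against 0.04 for all genes. Mrm3, which methylates the large mitochondrial ribosomal RNA, was at 9.10 CPM in cKO IL-33, 28.9 CPM in WT IL-33 and 7.28 CPM in WT vehicle (3.96-fold higher in WT IL-33 than in WT vehicle, 3.24 to 4.88). The helicase gene Ddx28 was 2.52-fold higher (2.10 to 3.03), Trmt10c, a subunit of mitochondrial RNase P, 2.36-fold (2.10 to 2.65) and Fastkd2 2.27-fold (1.90 to 2.73).

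Of 13 translation factor genes 3 were higher in WT IL-33, a share near the 21.8% of all genes, and 0 were lower, beside 19.1%. Tufm, the elongation factor that brings aminoacyl-tRNA to the ribosome, was at 18.1 CPM in cKO IL-33, 37.5 CPM in WT IL-33 and 15.3 CPM in WT vehicle (2.45-fold higher in WT IL-33 than in WT vehicle, 2.10 to 2.85), and its exchange factor Tsfm was 1.75-fold higher (1.525 to 2.003). Gfm2, which acts in ribosome recycling, was at 81.5, 52.6 and 73.0 CPM, 1.39-fold lower (1.26 to 1.53). Of 12 genes for loading mitochondrial tRNAs 3 were higher and 2 lower, both near the shares of all genes, 21.8% and 19.1%. Yars2, the tyrosyl-tRNA synthetase, was 3.42-fold higher (2.87 to 4.08), and Gatc, a subunit of the glutamyl-tRNA amidotransferase, 1.85-fold lower (1.51 to 2.27). The other higher genes were Kars (1.80-fold, 1.54 to 2.09) and Gars (1.79-fold, 1.61 to 1.99).

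Of 17 genes listed for transcription and upkeep of mitochondrial DNA, Myc included, 6 were higher in WT IL-33, beside 21.8% of all genes. The count of lower genes was 0, beside 19.1%. Myc is a transcription factor with many targets beyond this list, and it counts among the 6. It was at 26.9 CPM in cKO IL-33, 89.1 CPM in WT IL-33 and 16.0 CPM in WT vehicle (5.58-fold higher in WT IL-33 than in WT vehicle, 4.90 to 6.37). The coactivator gene Pprc1 was 2.67-fold higher (2.33 to 3.06) and the mitochondrial elongation factor gene Tefm 2.15-fold (1.78 to 2.61). In cKO IL-33 over WT vehicle, 3 of these 17 genes were at least 1.5-fold higher, beside 2.4% of all genes. Myc was among these 3, at 1.68-fold higher (1.45 to 1.95).

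The products of mitochondrial DNA were lower in WT IL-33 than in WT vehicle. The 13 mitochondrially encoded messenger RNAs summed to 25690 CPM in cKO IL-33, 23450 CPM in WT IL-33 and 30791 CPM in WT vehicle, and WT IL-33 held 0.762 of the WT vehicle level (0.758 to 0.765), with 1 of 13 at least 1.5-fold lower, mt-Nd5 (1.51-fold, 1.45 to 1.56), beside 19.1% of all genes. The 77 cytosolic ribosomal protein genes, whose products build the separate ribosome of the cytosol, summed to 127161, 104124 and 147843 CPM, and WT IL-33 held 0.704 of the WT vehicle level (0.703 to 0.706), with 22 of 77 at least 1.5-fold lower, beside 19.1% of all genes, and 0 higher, beside 21.8%. These RNAs make up a large share of each library, so the level of every other gene in CPM moves with them; with both lists taken out of the totals, the summed level of the 78 mitochondrial ribosomal protein genes was 1.20-fold higher in WT IL-33 than in WT vehicle.

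**Figure D5:**
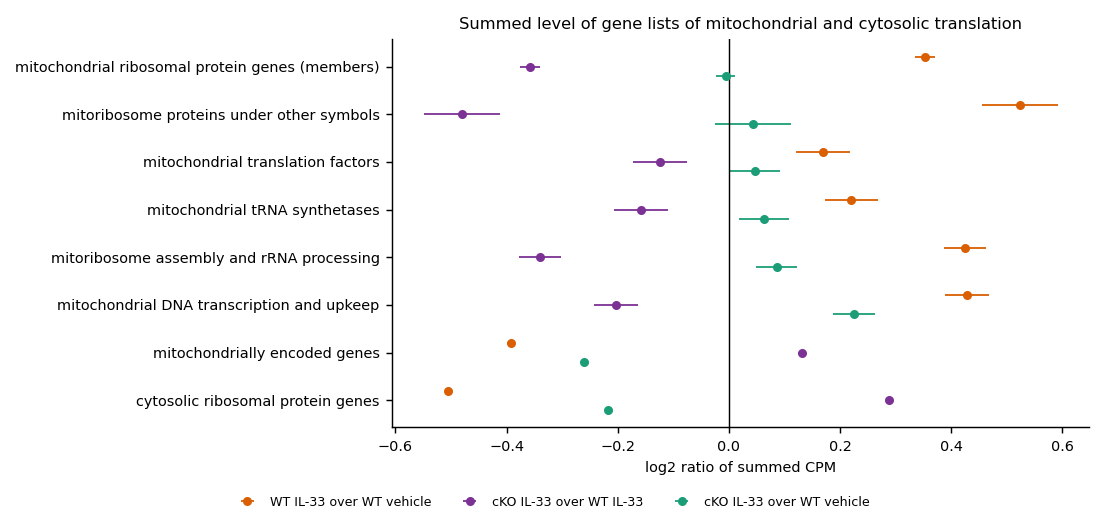
Log2 ratio of summed CPM for the 78 genes and for 7 other gene lists in the 3 comparisons, with exact 95% intervals for counting error, which are narrower than the points for the bottom pair. WT IL-33 over WT vehicle lies right of 0 for the 6 upper lists and left of 0 for mitochondrially encoded and cytosolic ribosomal protein genes. In the list for mitochondrial DNA transcription and upkeep, Myc holds 89.1 of 790 CPM in WT IL-33 and 16.0 of 587 CPM in WT vehicle.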

How the data were processed

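Per the labels' protocols, CD45+ thalamus cells were isolated with a homogenizer and a 22% Percoll gradient, sorted, and run on a 10x Chip G with V3.1 reagents. Cell Ranger 5.0, Seurat 4.0.1 and the builds GRCm38 and mm10 appear without roles in the submitters' processing notes. The authors deposited raw UMI counts per gene and cell and, per the file headers, a table with the library, sex call, cluster, cell-cycle phase, and mitochondrial and ribosomal percent of each cell. The count sums equalled the deposited totals in 7598 of 7598 cells. No filter or doublet call was added here.

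UMIs were summed per library (12127214 to 18269042), or per library and cluster or phase with at least 50 cells, and divided by the total to give CPM. Levels have exact Poisson intervals and ratios exact conditional binomial (Clopper-Pearson) intervals, at 95%. Genes with a mean of 10 CPM or more over the 3 libraries were counted as higher or lower at 1.5-fold, with no pseudocount. With 1 library per group no test was run and no p-value computed. Named genes were those with the 6 highest and 4 lowest mean levels, the 8 highest and 8 lowest ratios of each comparison, the 3 Mrps18 paralogs, genes under the minimum, and up to 4 genes of each other list with ratios furthest from 1. The genes and lists were chosen with earlier results of these data known, and the promoter motifs and the genes whose promoters or overlapping neighbours are shown were picked after values were seen. Positions are those of the GRCm38 annotation, matched by symbol. The scripts (Python 3.11.15, numpy 2.4.6, scipy 1.17.1, pandas 2.3.3, matplotlib 3.10.9) were tested on simulated counts. Alternatives changed the totals (TMM from edgeR 4.0.16 in R 4.3.3, median-of-ratios size factors, or totals without mitochondrially encoded and cytosolic ribosomal protein genes), the minimum, the fold, and the cells: 1 phase, 1 sex call, without clusters 3 or 4, without 315 cells with Xist and Y-linked UMIs, means of per-cell shares, or cells thinned to 3000 UMIs, which left out 86 cells of cKO IL-33, 353 of WT IL-33 and 77 of WT vehicle.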

Additional observations from a re-analysis of the deposited data

How the results depend on the processing

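No paired analysis was possible because each group was 1 library, and no alternative reversed the direction of the summed level or the median in the 2 comparisons with WT IL-33. For WT IL-33 over WT vehicle, the ratio of summed levels was 1.20 with totals free of mitochondrially encoded and cytosolic ribosomal protein genes, 1.245 with TMM-scaled totals, 1.29 in G1 cells, 1.30 without cluster 4 and 1.31 in cells called male; 42 genes were higher and 1 lower at a ratio of 5 to 4, 10 were higher at 2-fold, and at a minimum of 50 CPM 4 were higher and the median log2 ratio was 0.081. The count past 1.5-fold higher, 21 as reported, was 28 in G1 cells, 27 without cluster 4 and 27 in cells called male. It was 19 with the reduced totals and 19 with TMM. The share of all genes was not counted under these alternatives. For cKO IL-33 over WT IL-33, the ratio of sums was 0.804 with the reduced totals, 0.764 with TMM, 0.744 with median-of-ratios factors and 0.798 in cells called female. At a ratio of 5 to 4, 1 gene was higher and 35 were lower, and at 2-fold 10 were lower. At a minimum of 50 CPM 5 were lower (23.8%, beside 16.3% of all genes at that level) and the median log2 ratio was -0.19. For cKO IL-33 over WT vehicle, the ratio of sums was 0.966, 0.951 and 0.947 with the 3 other totals and the median -0.027, -0.049 and -0.056 (totals without both lists, TMM, median-of-ratios), below 0 where the reported value was 0.02, and 1 gene was higher at a ratio of 5 to 4. The counts at other folds and minima differ by construction; the cause of the other shifts was not tested. Of the ratios of named genes under other totals or cells, 417 stayed within their counting interval and 4 left it: Mrpl12 in G1 cells (3.07 for WT IL-33 over WT vehicle), Mrpl38 and Mrps18a in cells called female (0.540 and 0.787 for cKO IL-33 over WT IL-33) and Mrpl30 in G1 cells (0.754 for cKO IL-33 over WT vehicle). Of the summed levels by library and cluster under 2 alternatives, 16 left their counting interval and 14 did not: all 15 rose with the reduced totals, as fewer UMIs divide them, and WT vehicle in cluster 5 was 3089 CPM at 3000 UMIs a cell, against 2936 CPM; WT IL-33 stayed the highest library in clusters 0, 2, 3 and 5 under both. Depth limits single genes within clusters, where WT IL-33 outside cluster 1 had 59 to 144 cells.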
